A study of Mus musculus with 16 samples.

Results

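The 9 genes described here were 5 transcription factor genes of the trophectoderm lineage (Cdx2, Elf5, Gata3, Tfap2c and Tead4) and 4 simple epithelial keratin genes (Krt7, Krt8, Krt18 and Krt19). They were taken by gene symbol, and all 9 were found among the 26239 genes of each of 6 tables. RNA sequencing was done on E14Tg2A, a wild-type mouse embryonic stem cell line, to ask how nickel exposure changes the repression of developmental genes. Cells were grown in serum medium with leukemia inhibitory factor (LIF), which keeps stem cells undifferentiated, and received 0, 100, 150 or 200 µM NiCl2, renewed at each passage. They were harvested on day 4 or day 6, with untreated cells of the same day as controls. Each of the 8 groups had 2 libraries, 16 in all, from a single cell line with no genetic change between groups.

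The authors' deposited tables hold 1 RPKM (read numbers scaled to transcript length and to library depth, a level per length) for each group, with their log2 fold change, p-value and adjusted p-value for each nickel group against the control of its day. No value per library was given, so a spread between libraries cannot be shown for a level. An SE after a log2 fold change is the one implied by the authors' fold change and p-value, and a gene is called changed where the authors' adjusted p was under 0.05. The labels do not say whether both libraries of a group were made from separate dishes of cells, and the p-values measure the spread between libraries, which may be technical. The 3 comparisons of one day share their control libraries. Library depth, estimated from the smallest steps of the RPKM values, ranged from 34.1 to 76.8 megareads. In bulk RNA, fewer cells of a type and less RNA per cell cannot be told apart.

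The trophectoderm is the first epithelium of the mouse embryo and gives rise to the trophoblast of the placenta. Tead4, bound by the Hippo-regulated coactivator Yap1, acts upstream of the lineage factor Cdx2, while Gata3, Tfap2c and Elf5 act in the trophectoderm or its stem cells. Embryonic stem cells derive from the inner cell mass and hold this programme in check. Keratin filaments assemble from pairs of a type II keratin (Krt7 or Krt8) and a type I keratin (Krt18 or Krt19), and Krt8 with Krt18 forms the filaments of early embryonic epithelia.

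Krt7, Krt8 and Krt18 lie in the type II keratin cluster on mouse chromosome 15, and their promoters are shown because these neighbouring genes went different ways with nickel, Krt7 lower, Krt8 higher and Krt18 neither. The letters are the 250 bases before each start, 5′ to 3′ on the gene's strand, from RefSeq on GRCm38.p6, with matches to the motifs searched in capitals. The regions are chr15:101412153-101412402 on the plus strand for Krt7, chr15:102004343-102004592 on the minus strand for Krt8 and chr15:102027966-102028215 on the plus strand for Krt18.
Krt7: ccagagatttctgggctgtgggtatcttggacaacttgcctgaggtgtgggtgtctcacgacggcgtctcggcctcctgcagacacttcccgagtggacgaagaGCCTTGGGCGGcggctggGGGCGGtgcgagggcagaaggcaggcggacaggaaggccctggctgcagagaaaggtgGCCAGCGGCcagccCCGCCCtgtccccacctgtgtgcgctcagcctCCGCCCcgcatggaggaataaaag
Krt8: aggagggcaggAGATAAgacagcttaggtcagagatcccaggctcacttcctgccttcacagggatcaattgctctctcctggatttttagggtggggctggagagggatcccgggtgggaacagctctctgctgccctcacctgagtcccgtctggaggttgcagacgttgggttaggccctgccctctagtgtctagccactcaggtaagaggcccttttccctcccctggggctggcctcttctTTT
Krt18: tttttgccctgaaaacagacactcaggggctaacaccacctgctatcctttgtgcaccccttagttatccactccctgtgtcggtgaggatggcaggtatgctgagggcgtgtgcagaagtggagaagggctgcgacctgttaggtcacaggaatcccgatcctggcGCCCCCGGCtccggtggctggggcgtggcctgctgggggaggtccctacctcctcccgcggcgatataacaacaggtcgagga

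The capitals in Krt7 mark 2 matches to the TFAP2 motif GCCNNNGGC, 146 and 70 bases before the start, and 4 matches to the SP1 motif GGGCGG, of which the one at 141 bases overlaps the TFAP2 match at 146. The Krt18 promoter held 1 TFAP2 match, 83 bases before the start, and no SP1 match. The Krt8 promoter held neither. Its capitals mark 1 match to the GATA motif AGATAA, 239 bases before the start, and the first 3 bases of a pair of overlapping TATAAA matches that run across the start. Both strands were searched in windows of 300 bases, of which the last 50 follow the start. Of 32851 RefSeq promoter windows of that length, 16.6% held the TFAP2 motif, 35.7% the SP1 motif, 11.2% the GATA motif and 13.6% TATAAA. In the other windows matched to these genes, the Gata3 promoter held 3 TFAP2 and 2 SP1 matches, and the Cdx2 promoter held 1 TFAP2 match and 1 match to the OCT motif ATGCAAAT, which 1.74% of all windows hold. One of the 2 Elf5 windows held the TEAD motif GGAATG, 173 bases before its start, a motif that 14.7% of all windows hold. The other motifs searched in all windows were AP-1 (TGANTCA), HIF (ACGTG) and CDX (TTTATNG). The HIF motif lay 24 bases before the Cdx2 start, and neither of the others was found in the 7 windows of these genes. A match describes letters only and says nothing of binding.

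Of the 4 keratin genes, 3 were called in at least 1 comparison, and none of the 5 trophectoderm factor genes was called at any dose or day. Over the 6 comparisons, 8 of 24 keratin tests and 0 of 30 factor tests passed the authors' adjusted p of 0.05 (DESeq2), and 3 factor tests had an unadjusted p under 0.05. Cdx2, Elf5 and Gata3 were too low for a fall or a small rise to be detectable, so these counts do not compare factors with keratins. A large rise from such a level could pass, as Tfap2e did at 150 µM on day 4, from an RPKM of 0.0277 to 0.393. At 100 µM on day 4, 1 of the 9 genes was called (Krt7, lower), against 1.04% of all genes tested. At 150 µM on day 4, 2 were called (Krt7 and Krt19, both lower), against 6.75%. At 200 µM on day 4, 2 were called (Krt8 higher and Krt7 lower), against 7.92%. On day 6, 1 was called at 100 µM (Krt8, higher; 2.83% of all genes), 0 at 150 µM (4.34%) and 2 at 200 µM (Krt8 higher and Krt7 lower; 9.47%). Among genes with an RPKM of at least 1 in either group, which 6 of the 9 genes reached in each comparison, the shares called with rising dose were 1.59%, 10.1% and 11.6% for day 4, and for day 6 they were 4.54%, 6.61% and 13.4%. The median log2 fold change of the 9 genes lay between -0.22 and 0.30 over the 6 comparisons, beside -0.031 to 0.0089 for all genes tested.

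**Figure D1:**
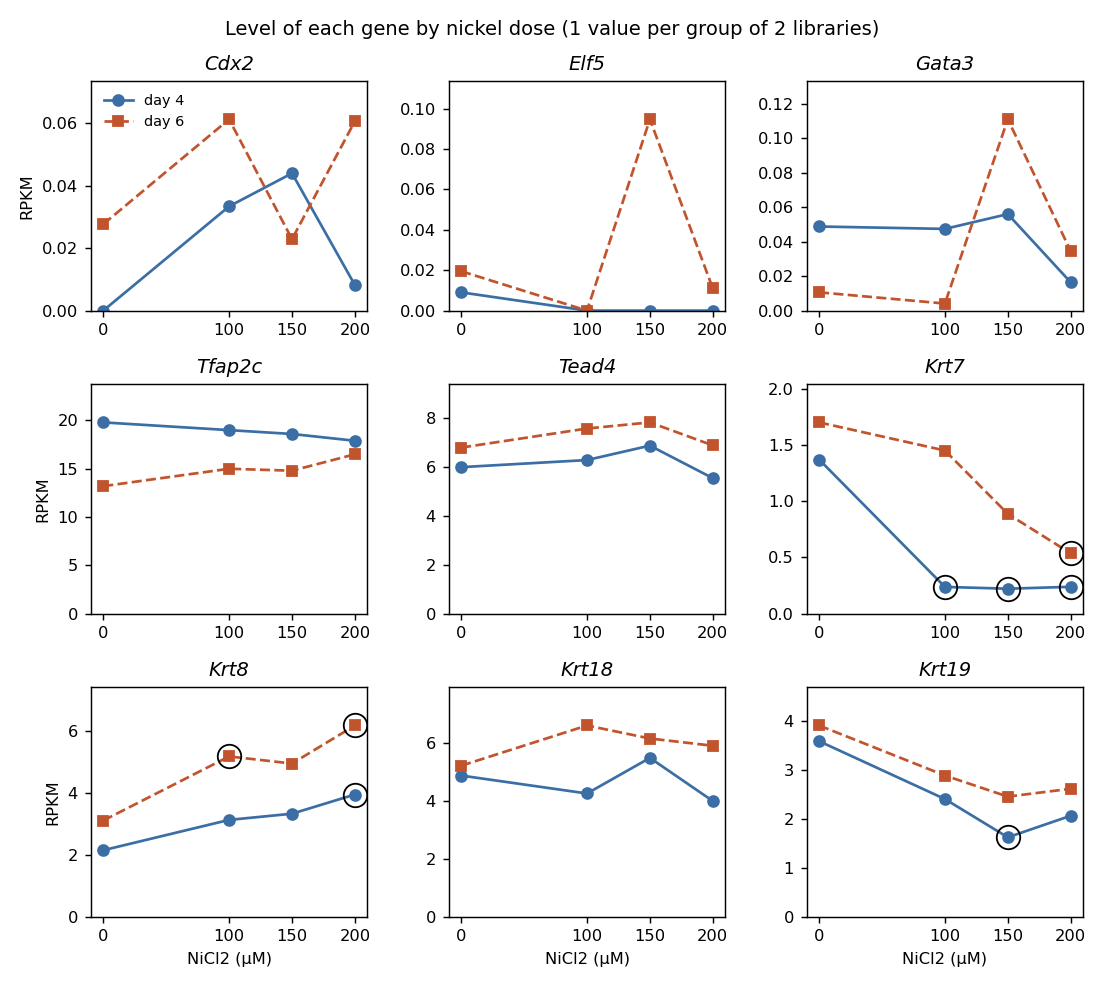
Authors' RPKM (vertical axis, linear from 0, a separate scale for each gene) of the 9 genes against the NiCl2 dose in µM, with circles for day 4 and squares for day 6; each point is 1 value for a group of 2 libraries, and a ring marks an adjusted p under 0.05 against the control of that day. Cdx2, Elf5 and Gata3 stayed at or under an RPKM of 0.111, Krt7 was lower than its control at every dose and Krt8 was higher at every dose.

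Cdx2 (chr5:147300900-147307249, minus strand, GRCm38), the homeobox factor that sets trophectoderm identity, was near the limit of detection in every group. In the authors' deposited tables its RPKM on day 4 was listed at 0 in the control and was 0.0334, 0.044 and 0.00817 with rising dose. On day 6 it was 0.0277, 0.0613, 0.0229 and 0.0607 in the same order of dose. Read back through the estimated depths, these values stand for about 0, 8, 9 and 2 reads on day 4 and about 8, 18, 4 and 18 reads on day 6, summed over both libraries of a group. The lowest adjusted p in the authors' deposited tables was 0.771, at 200 µM on day 6, where the implied 95% interval of the log2 fold change ran from -2.37 to 4.64. At this depth a fall or a small rise of Cdx2 was not detectable.

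Elf5 (chr2:103412098-103450988, plus strand), an ETS factor of trophoblast stem cells, was listed at 0 in 4 of the 8 groups, namely the 3 nickel groups of day 4 and 100 µM on day 6. Its other RPKM values were 0.00903 in the day 4 control and 0.0195, 0.0947 and 0.011 in the control, 150 µM and 200 µM groups of day 6. The adjusted p was 1 in all 6 of the authors' deposited tables.

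Gata3 (chr2:9857078-9878600, minus strand), a zinc finger factor of the trophectoderm, had RPKM values of 0.0488, 0.0474, 0.056 and 0.0164 on day 4 and 0.0106, 0.00409, 0.111 and 0.0345 on day 6, from 0 to 200 µM. The value at 150 µM on day 6 was the highest of the 8 and stands for about 31 reads. There the authors' deposited table gave a log2 fold change of 3.53 (implied SE 1.78, unadjusted p = 0.0472, adjusted p = 0.293). The other 5 comparisons of Gata3 had adjusted p-values between 0.707 and 1. Gata3 overlaps the antisense gene Gm13256, and whether the authors counted by strand is not given in the sources used here.

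Elf5 and Gata3 were both at their highest at 150 µM on day 6, the group with the shallowest estimated library. Its libraries were estimated at 61 and 34.1 megareads, and of the single-exon genes whose value there stood for 1 read, 40 had that read in the deeper library and 2 in the shallower. At 100 µM on day 4 these numbers were 28 and 0, and in the other 6 groups each library had between 7 and 34. At 100 µM on day 4 the Cdx2 value could be reached with 8 reads in the deeper library and 0 in the shallower. The part of this imbalance in the 3 low factors was not tested.

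Tfap2c and Tead4 were the factors with measurable expression. Tfap2c (chr2:172550991-172558621, plus strand) encodes AP-2 gamma, which acts in the trophectoderm and in primordial germ cells. Its RPKM on day 4 was 19.8 in the control and 19, 18.6 and 17.9 with rising dose, and on day 6 it was 13.2 in the control and 15, 14.8 and 16.5. So its level was at its highest in the day 4 control and at its lowest in the day 6 control, with all nickel groups between, a 1.5-fold range. The day 4 log2 fold changes in the authors' deposited tables lay between -0.08 and -0.02, and those of day 6 between 0.19 and 0.34. At 200 µM on day 6 the unadjusted p was 0.0101 and the adjusted p 0.0756, with an implied 95% interval of the fold from 1.06 to 1.51.

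Tead4 (chr6:128227143-128300813, minus strand), the DNA-binding partner of Yap1, had RPKM values of 5.99, 6.28, 6.87 and 5.54 on day 4 and 6.79, 7.57, 7.82 and 6.88 on day 6. On both days the 150 µM group was the highest. Its log2 fold changes lay between -0.05 and 0.30, with adjusted p-values from 0.34 to 0.966 in the authors' deposited tables. The implied 95% intervals of the fold ran from 0.738 at the lowest, at 200 µM on day 4, to 1.52 at the highest, at 150 µM on day 6.

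Krt7 (chr15:101412403-101427806, plus strand), a type II keratin of simple and glandular epithelia, showed the largest change of the 9 genes among those that passed. Its RPKM on day 4 was 1.37 in the control and 0.238, 0.222 and 0.239 at 100, 150 and 200 µM. On day 6 it was 1.7 in the control and 1.45, 0.887 and 0.536. On day 4 the 3 doses therefore gave nearly the same low level, about 34 to 40 reads against about 204 in the control, while on day 6 the level was lower at each higher dose. The authors' deposited tables gave log2 fold changes on day 4 of -2.48 (implied SE 0.68, adjusted p = 0.0277), -2.58 (0.61, adjusted p = 0.000808) and -2.45 (0.65, adjusted p = 0.0041) in order of dose. These correspond to control levels 5.59, 6.00 and 5.48 times those with nickel. With 1 added to each RPKM the day 4 log2 ratios were smaller, at -0.94, -0.96 and -0.94. On day 6 the authors' deposited tables gave -0.22 (0.33, adjusted p = 0.855), -0.85 (0.51, adjusted p = 0.429) and -1.66 (0.58, adjusted p = 0.0404), so that on day 6 only the 200 µM group passed.

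Krt8 (chr15:101996711-102004342, minus strand), the type II partner of Krt18, was higher with nickel in all 6 comparisons. Its RPKM was 2.15, 3.13, 3.33 and 3.95 on day 4 and 3.11, 5.18, 4.95 and 6.18 on day 6. No nickel group of a day came down to the control of that day, and the 200 µM group was the highest on both days. Krt8 passed at 200 µM on day 4, with a log2 fold change in the authors' deposited table of 0.94 (implied SE 0.33, adjusted p = 0.0481). This call was lost when the p-values of all tested genes were adjusted together. It also passed on day 6 at 100 µM, where the authors' deposited table gave 0.74 (0.19, adjusted p = 0.00666), and at 200 µM, where it gave 1.00 (0.23, adjusted p = 0.00035), a 2.01-fold rise. At 150 µM on day 6 the estimate was close to that at 100 µM but did not pass (0.76, implied SE 0.26, adjusted p = 0.0615 in the authors' deposited table), and the day 4 values at 100 and 150 µM were 0.58 and 0.67 (adjusted p = 0.649 and 0.164). Of 1909 windows of 50 bases in Krt8 transcripts, 567 (29.7%) also occur in another gene, 514 of them in the pseudogene Krt8-ps, which was not analysed here. The level of Krt8 is therefore uncertain to the extent that the authors' counting could split such reads.

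Krt18 (chr15:102028216-102032026, plus strand), the type I partner of Krt8, did not pass in any comparison. Its RPKM was 4.88, 4.26, 5.49 and 4.00 on day 4 and 5.22, 6.61, 6.16 and 5.91 on day 6. On day 4 the nickel groups lay on both sides of the control, and on day 6 all 3 lay above it. Its log2 fold changes in the authors' deposited tables lay between -0.22 and 0.35, with adjusted p-values from 0.45 to 0.976. The implied 95% intervals of the fold had their lowest bound at 0.573 (200 µM, day 4) and their highest at 1.89 (150 µM, day 6).

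Krt19 (chr11:100140811-100143699, minus strand), a short type I keratin that lies on another chromosome than the other 3, was lower with nickel in all 6 comparisons and passed in 1. Its RPKM was 3.58, 2.40, 1.62 and 2.06 on day 4 and 3.9, 2.88, 2.45 and 2.61 on day 6. The 150 µM group was the lowest on both days. At 150 µM on day 4 the authors' deposited table gave a log2 fold change of -1.07 (implied SE 0.35, adjusted p = 0.0323). At 200 µM on day 4 it gave -0.81 (0.37, unadjusted p = 0.0303, adjusted p = 0.17), and in the other 4 comparisons the values lay between -0.58 and -0.43.

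**Figure D2:**
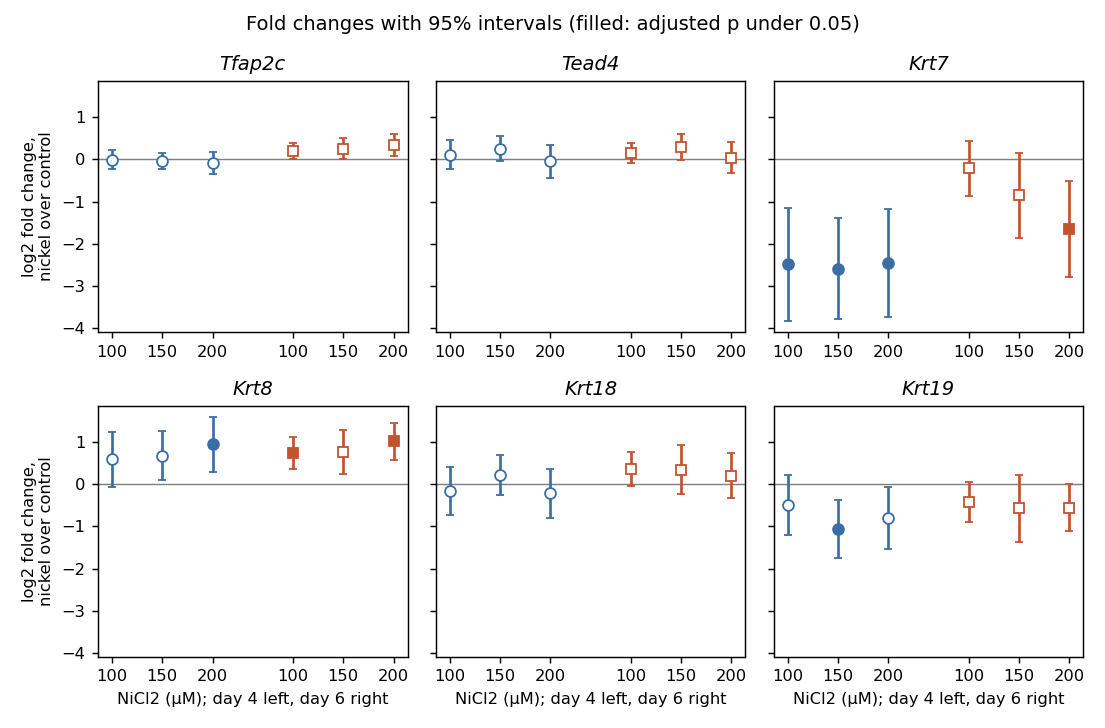
Authors' log2 fold change of nickel over the control of the same day (vertical axis) for the 6 genes with an RPKM of at least 1, by NiCl2 dose in µM, day 4 left (circles) and day 6 right (squares); bars are 95% intervals implied by the authors' p-values, and filled symbols have an adjusted p under 0.05. The Krt7 intervals on day 4 lie wholly below 0. The Krt8 estimates lie above 0 throughout, with an interval that crosses 0 at 100 µM on day 4. The Tfap2c and Tead4 estimates lie between -0.08 and 0.34.

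The keratins differed in direction, and the parts of Krt7 and Krt8 in their sum differed between groups. The RPKM of the 4 keratins summed to 11.98 in the day 4 control and to between 10.03 and 10.66 in the nickel groups, and on day 6 to 13.93 in the control and between 14.45 and 16.12 with nickel. Krt7 made up 11.4% of this sum in the day 4 control and 2.08% to 2.37% with nickel. On day 6 its part was 12.2% in the control and 9%, 6.14% and 3.52% with rising dose. The part of Krt8 was 17.9% in the day 4 control and 38.5% at 200 µM, and on day 6 it was 22.3% and 40.6%.

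The ratio of Krt8 to its partner Krt18 was 0.441 in the day 4 control and 0.735, 0.607 and 0.988 at 100, 150 and 200 µM. On day 6 it was 0.596 in the control and 0.784, 0.804 and 1.05. In all 6 nickel groups it was above both controls. The ratio of Krt7 to Krt8, the alternative type II keratins, was 0.637 in the day 4 control and 0.0605 to 0.076 with nickel, and on day 6 it went from 0.547 to 0.28, 0.179 and 0.0867. The ratio of Krt19 to Krt18, the type I pair, was 0.734 and 0.747 in the controls and between 0.295 and 0.563 with nickel. The sum of Krt7 and Krt8 over the sum of Krt18 and Krt19 came to 0.416 and 0.527 in the controls and reached 0.691 and 0.788 at 200 µM. These ratios come from 1 value per group and carry no test. The uncertainty of the Krt8 level applies to each ratio that holds it.

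**Figure D3:**
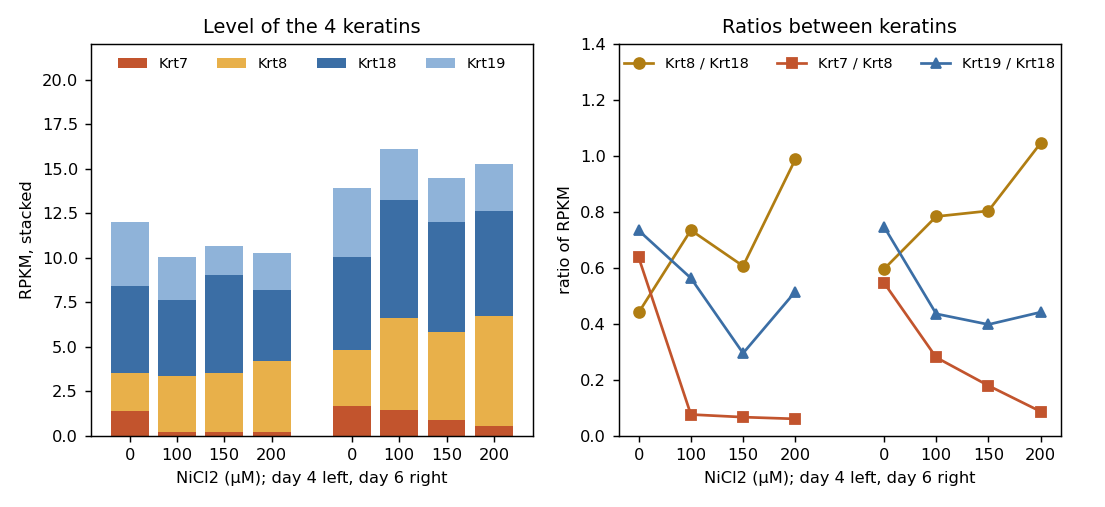
Left, stacked bars from 0 of the authors' RPKM of Krt7, Krt8, Krt18 and Krt19 in each of the 8 groups by NiCl2 dose in µM, day 4 left and day 6 right; right, ratios of RPKM between keratins in the same groups, 1 value per group with no error. The Krt7 layer is thinnest in the day 4 nickel groups and the ratio of Krt8 to Krt18 reaches 0.988 and 1.05 at 200 µM, where the ratio of Krt7 to Krt8 is 0.0605 and 0.0867.

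The rest of the cluster was little expressed. Between Krt7 and Krt18 the authors' tables hold 24 keratin genes other than Krt8, of which 3 were listed at 0 in all groups and 1, Krt79, a keratin of skin appendages, reached an RPKM of 1 (1.02 at 200 µM on day 6). Krt8 and Krt18 lie 23873 bases apart, and Krt7 lies 568904 bases before Krt8. Krt79 was also the only one of the 51 other keratins of the mouse in these tables to be called in any comparison, at 200 µM on day 6, where the authors' deposited table gave a log2 fold change of 1.39 (implied SE 0.48, adjusted p = 0.0388). Of the 51, 30 to 40 were tested in each comparison and 4 reached an RPKM of 1 in any group. At 200 µM on day 6, 2.63% of the 38 tested were called, against 9.47% of all genes tested. Krt10, Krt17 and Krt42 were the remaining keratins with an RPKM of at least 1, the highest being Krt42 with 5.63 to 8.57 over the groups, and none of these passed. Krt5 and Krt14, the keratins of the basal layer of stratified epithelia, reached at most 0.251 and 0.468.

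The time of exposure was compared by the difference between the day 6 and day 4 log2 fold changes at each dose, whose libraries are separate. None of the 9 genes passed at any dose after adjustment over all genes tested, and 1 gene at each dose had an unadjusted p under 0.05. Over all genes 7 of 18734 passed at 100 µM, 14 of 18784 at 150 µM and 9 of 18889 at 200 µM, and 560, 591 and 369 had an unadjusted p under 0.05. For Krt7 at 100 µM the difference was 2.27 (SE 0.76, two-sided z test, adjusted p = 1.00), that is a value nearer to 0 on day 6, and at 150 µM it was 1.74 (SE 0.80, adjusted p = 1.00). The third was Tfap2c at 200 µM, with a difference of 0.42 (SE 0.19, adjusted p = 1.00). The absence of a call for Krt7 at 100 and 150 µM on day 6 is thus not shown to be a difference between days. Nor are the days shown to be alike. In a simulation on 200 randomly drawn genes, the test recovered 37.5 to 42.5% of log2 differences of 2. That share is not the power for these 9 genes. Their SE of the difference ran from 0.15 (Tfap2c, 100 µM) to 6.40 (Elf5, 100 µM).

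Across the 8 groups the 6 measurable genes did not vary together as a set. Pearson's r of log2(RPKM + 0.1) over the 8 groups was 0.92 for Tead4 with Krt18 and 0.87 for Krt7 with Krt19, and it was -0.058 for Krt7 with Krt8. Tfap2c was inversely related to each of the other 5, from -0.43 with Krt19 to -0.63 with Tead4. These values describe 8 group means that share day and controls, and they carry no test.

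Among 4460 genes with a mean RPKM of at least 1 and a log2 range of at least 0.5, the pattern closest to Krt7 was that of Txnrd3, a thioredoxin and glutathione reductase gene (r = 0.99), followed by Hspb11 (0.98) and the calcium-binding protein gene Calb2 (0.97). Calb2 had RPKM values of 3.20, 1.36, 1.28 and 0.995 on day 4 and 3.26, 2.64, 2.51 and 1.93 on day 6. The pattern of Krt8 was most like those of the cullin gene Cul7 (0.98), the potassium channel gene Kcnh3 (0.97) and the glyoxylate reductase gene Grhpr (0.97), with Cul7 going from 11.8 to 16.5 on day 4 and from 13.7 to 19.8 on day 6 between 0 and 200 µM. Krt19 was most like Uap1l1 (0.98), the glutathione-degrading enzyme gene Chac1 (0.96) and Wdr81 (0.95). Chac1 had an RPKM of 17.6 in the day 4 control and 4.74, 3.40 and 4.09 with nickel, and 21.0 against 8.31, 5.7 and 6.59 on day 6. Krt18 was nearest to the BMP signal transducer gene Smad1 (0.95), and Dipk1b was also among its nearest (0.89). For Tead4 the nearest were Dipk1b (0.95), Pex2 (0.92) and Krt18. For Tfap2c they were the troponin gene Tnnt1 (0.95), Tmem184a (0.93) and the cell cycle inhibitor gene Cdkn2b (0.93). Each r is among the highest of 4460 candidates over only 8 groups. High values can come from this choice alone, and they carry no test.

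Among other genes of the trophoblast programme, calls were made in both directions. Of 28 further trophoblast genes, 7 were called higher and 4 lower in at least 1 comparison, and 17 in none. At 200 µM on day 6, 5 of the 27 tested were higher and 4 lower (33.3% called, against 9.47% of all genes tested), with a median log2 fold change of 0.20 against 0.0023 for all genes. In the other 5 comparisons between 0 and 5 of them were called. On day 4 this was 0%, 11.1% and 18.5% with rising dose, against 1.04%, 6.75% and 7.92% of all genes tested. On day 6 it was 7.69% at 100 µM and 3.85% at 150 µM, against 2.83% and 4.34%. Of the 28, 23 reached an RPKM of 1. Among all genes with that level, 1.59%, 10.1% and 11.6% were called on day 4 with rising dose. On day 6 these were 4.54%, 6.61% and 13.4%. This list and those below were chosen with earlier results of these data known, so their shares are no test. Hand1, a basic helix-loop-helix factor of trophoblast giant cells and the heart, rose at 200 µM from an RPKM of 0.177 to 1.02 on day 4 and from 0.139 to 0.928 on day 6. Sox21, a SOX family factor, rose at 200 µM on day 6 from 1.41 to 3.76 (log2 fold change 1.44, implied SE 0.21, adjusted p = 5.34e-10 in the authors' deposited table). Msx2, a homeobox factor, rose at 200 µM on both days, to an RPKM of 1.36 and 1.37. Peg10, an imprinted gene that the placenta requires, rose at 150 and 200 µM on day 4, from 28.5 to 38.9 and 37.8.

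The trophoblast genes that fell included Plet1, an epithelial surface protein gene of the early trophoblast, whose RPKM on day 6 was 3.77, 3.11, 1.59 and 1.02 with rising dose. Its log2 fold change at 200 µM on day 6 was -1.87 (implied SE 0.31, adjusted p = 2.85e-07 in the authors' deposited table), and it also passed at 150 µM on day 6 and at 200 µM on day 4. Fgfr2, the receptor through which FGF4 maintains trophoblast stem cells, fell in 3 comparisons and was at 2.00 in the day 6 control against 0.955 at 200 µM. Gata2, the close relative of Gata3, fell at 150 µM on day 4 from 1.47 to 0.379 and at 200 µM on day 6 from 1.56 to 0.812. Dab2, an endocytic adaptor gene shared with the primitive endoderm, fell at 200 µM on day 6 from 2.41 to 1.31.

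Of 15 other TFAP2, GATA, CDX and ELF family genes, 2 were called higher, 1 lower and 12 in no comparison. Of the 13 tested, 23.1% were called at 150 µM on day 4 and at 200 µM on day 6, against 6.75% and 9.47% of all genes. Of the 15, 9 reached an RPKM of 1, and 10.1% and 13.4% of genes with that level were called there. The median log2 fold changes of the list were 0.32 and 0.092, and in 3 comparisons none was called. Tfap2e, a relative of Tfap2c, rose at 150 and 200 µM on day 4 and at 200 µM on day 6, from an RPKM of 0.0277 to 0.393 and 0.642, and from 0.0609 to 0.484. Gata4, a factor of the heart and of extraembryonic endoderm, rose in the same 3 comparisons, from 0.992 to 1.93 and 2.41 on day 4 and from 0.947 to 2.24 on day 6. Gata2, above, was the one that fell.

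Of 21 further TEAD and Hippo pathway genes, 2 were called higher, 2 lower and 17 in no comparison, and no comparison had more than 3 called. That was 14.3% at 200 µM on both days, against 7.92% and 9.47% of all genes tested. Of the 21, 20 reached an RPKM of 1, and 11.6% and 13.4% of genes with that level were called there. So the share was near that of genes with such a level. The median log2 fold changes of the list were -0.052 and 0.066. Ajuba, a LIM protein gene whose product binds Lats kinases, rose at all 3 doses on day 4, from an RPKM of 25.5 to 31.7, 33.5 and 37.2. Ccn2, a target gene of Yap1 and TEAD factors, rose at 200 µM on day 6, from 6.18 to 9.43 (log2 fold change 0.63, implied SE 0.17, adjusted p = 0.00309 in the authors' deposited table). Amotl2 and Amot, whose products bind Yap1, fell. Amotl2 passed in 4 comparisons, with RPKM values on day 6 of 12.4 in the control and 10.1, 6.43 and 7.90 with rising dose, and Amot passed at 200 µM on both days.

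Of 14 genes known to restrain the trophoblast programme in stem cells, 3 were called higher, 2 lower and 9 in no comparison. The share called ran from 14.3% to 28.6% over the 6 comparisons, against 1.04% to 9.47% of all genes tested. All 14 reached an RPKM of 1, and among genes with that level 1.59% to 13.4% were called. At 200 µM on day 4 the share was 14.3%, against 11.6% of genes with that level. Nanog, a pluripotency factor, rose in all 6 comparisons, from an RPKM of 168 to 308 at 200 µM on day 4 and from 195 to 345 on day 6. Trim28, a corepressor gene, rose in 5, from 456 to 621 at 200 µM on day 4. Pou5f1, the factor that represses Cdx2 in stem cells, was between 695 and 857 in all groups and rose in 1 comparison, at 150 µM on day 4, by a log2 fold change of 0.20 (implied SE 0.06, adjusted p = 0.00597 in the authors' deposited table). Dnmt1, the maintenance DNA methyltransferase gene, fell at 150 µM on day 4 and at 200 µM on day 6, from 77.4 to 63.6 and from 75.4 to 57.8. Mbd3, a subunit gene of the NuRD repressor complex, fell at 200 µM on day 6 from 72.6 to 54.3. The median log2 fold change of this list lay between -0.062 and 0.092 over the 6 comparisons.

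**Figure D4:**
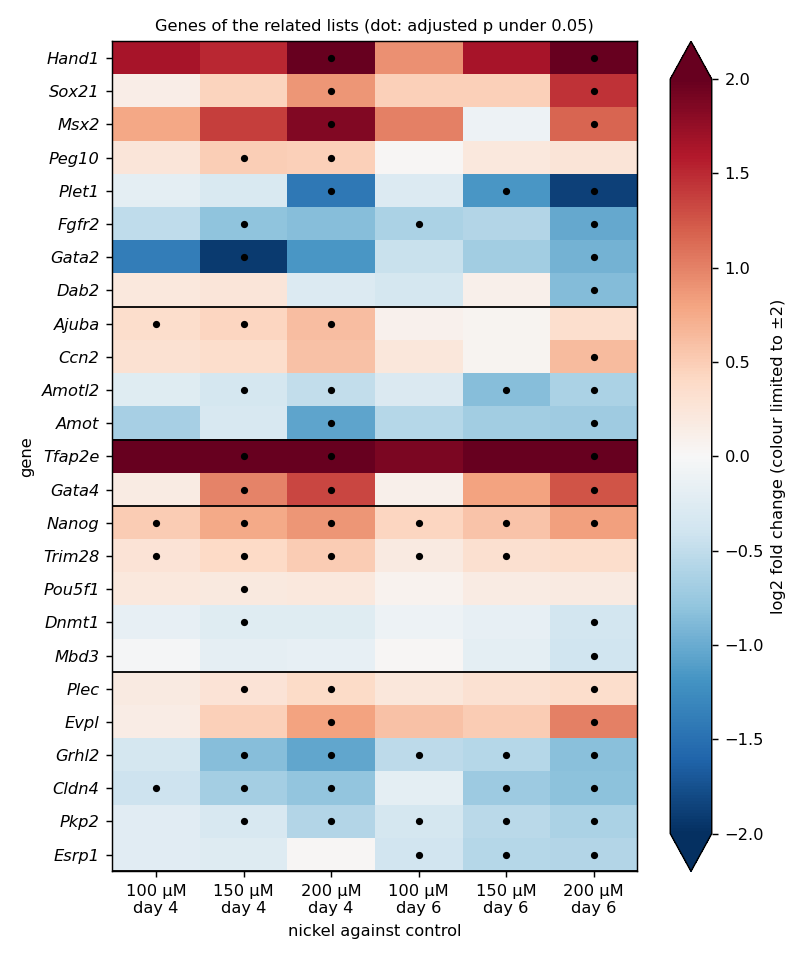
Authors' log2 fold change of nickel over control (colour, limited to 2 in either direction) for 25 named genes in rows and the 6 comparisons in columns; black lines separate, from the top, trophoblast genes, TEAD and Hippo genes, relatives of the factor genes, trophoblast repressors and epithelial junction genes, and a dot marks an adjusted p under 0.05. Nanog has a dot in every column, and Grhl2, Cldn4 and Pkp2 are blue with a dot in 5 of 6.

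Genes of epithelial junctions, listed with some epithelial regulators, were called lower more often than higher. Among the list's desmosome and filament linker genes, Pkp2 and Jup were called lower and Plec and Evpl higher in at least 1 comparison. Of 25 such genes, 8 were called lower and 2 higher in at least 1 comparison and 15 in none. At 200 µM on day 6, 8 were lower and 2 higher (40% called, against 9.47% of all genes tested). The median log2 fold change there was -0.10 against 0.0023. Of the 25, 22 reached an RPKM of 1, and 13.4% of genes with that level were called there. This 40% was the highest share over the 6 comparisons, and the lowest was 4%, at 100 µM on day 4. The desmosomal plaque gene Pkp2, the tight junction gene Cldn4 and the epithelial transcription factor gene Grhl2 each fell in 5 of the 6 comparisons. Cldn4 had RPKM values of 50.6, 37.1, 30.7 and 28.2 on day 4 and 55.4, 47.9, 31.7 and 30.9 on day 6. Grhl2 had 6.30, 4.80, 3.40 and 2.91 on day 4 and 6.50, 4.50, 4.11 and 3.56 on day 6. Esrp1, an epithelial splicing factor gene, fell at all 3 doses on day 6. Plec and Evpl, which encode linkers between intermediate filaments and the membrane, were the 2 that rose, Evpl at 200 µM on day 6 from 1.09 to 2.17.

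Of 14 other intermediate filament genes, 3 rose in at least 1 comparison and none fell. At 200 µM on day 6, 21.4% of them were called, against 9.47% of all genes tested. Of the 14, 12 reached an RPKM of 1, and 13.4% of genes with that level were called there. The median log2 fold change of the list was 0.15 against 0.0023, and in 3 of the 6 comparisons none was called. Nefm, a neurofilament gene, rose at 200 µM on both days and at 150 µM on day 6, from an RPKM of 0.515 to 2.13 at 200 µM on day 6 (log2 fold change 2.06, implied SE 0.30, adjusted p = 7.64e-10 in the authors' deposited table). Gfap and Synm rose at 200 µM on day 6, from 0.246 to 0.812 and from 1.15 to 1.72.

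The primitive endoderm and the germ line, lineages that share some of these factors or their relatives, were read beside them. Of 17 primitive endoderm genes, 4 rose and 3 fell in at least 1 comparison. At 150 µM on day 4, 31.2% of those tested were called, against 6.75% of all genes, and at 200 µM on day 6, 29.4% against 9.47%. At 100 µM the shares were 0% on day 4 and 11.8% on day 6, against 1.04% and 2.83%. At 200 µM on day 4 it was 25% against 7.92%, and at 150 µM on day 6 23.5% against 4.34%. Of the 17, 10 reached an RPKM of 1, and 1.59% to 13.4% of genes with that level were called. Col4a1, a basement membrane collagen gene, rose in 4 comparisons, and Hnf4a, a nuclear receptor of endoderm, fell in 5, from an RPKM of 2.14 to 0.207 at 200 µM on day 6. Lama1 and Sparc, both of the basement membrane, rose in 3 and 2 comparisons, and Cubn fell in 2. Of 8 genes of germ cell precursors, where Tfap2c also acts, Kit rose in all 6 comparisons and Prdm14 in 5, while Prdm1, the partner of Tfap2c in that lineage, fell in 4, Dazl in 3 and Dppa3 in 1. In 4 of the 6 comparisons 50% of these 8 were called, against 2.83% to 9.47% of all genes tested there. The share was 12.5% at 100 µM on day 4 and 25% at 150 µM on day 6. All 8 reached an RPKM of 1, and 4.54% to 13.4% of genes with that level were called in those 4 comparisons. Both lists were chosen with earlier results of these data known, so these shares are no test. Kit had an RPKM of 18.8 in the day 4 control and 39.0 at 200 µM, and Prdm1 had 4.55 and 2.45.

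Markers of the labelled cell type were high in every group. The 6 stem cell markers summed to an RPKM of 1758 to 2060 over the groups, with 1758 and 1782 in the controls, and each was at 64 or above in every group. The 12 trophectoderm markers, 8 of which are among the genes above, summed to between 28.9 and 36.6. Most of this was Tfap2c and the 4 keratins, while Cdx2, Elf5, Gata3 and Plac1 stayed at or under an RPKM of 0.192. The 8 primitive endoderm markers, mostly transcription factors, summed to 5.68 to 8.71. Sparc, Lama1 and Col4a1 of the longer list above are not among these 8, and Sparc alone was at 49.5 to 69.6. The 4 mesoderm markers summed to 1.48 to 2.91. The 4 fibroblast markers summed to 11.3 in the day 4 control, 8.002 in the day 6 control and between 4.71 and 9.26 with nickel, most of it Thy1, the only fibroblast marker to reach an RPKM of 1. No marker of these lists was at 0 in all groups. The part of other cell types in the keratin changes was not tested.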

How the data were processed

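RNA of 16 libraries (8 groups of 2) was prepared with a stranded mRNA kit, per the labels. The authors deposited 6 tables of 26239 genes with 1 RPKM per group. Beside it stand a log2 fold change and both p-values, raw and adjusted, per the file headers. STAR, DESeq2 and GRCm38 are named in the submitters' processing notes, with no version or setting. RPKM scales with library depth and length, so low genes move in steps of 1 read. The authors' start positions were raised by 1, to count from 1.

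With no value per library, no new test per gene was possible, and the authors' adjusted p-values were counted at 0.05. Genes listed with no change at all (log2 fold change 0, p-value 1) counted as untested. An SE was derived from the fold change and its p-value under a normal approximation. Day differences were tested with a two-sided z test, Benjamini-Hochberg adjusted over all genes, and that step was checked on simulated data. Of 200 genes given a log2 difference of 2, it recovered 42.5%, 38.5% and 37.5% at 100, 150 and 200 µM. False calls were 6.59%, 4.94% and 6.25% of its calls. The share recovered is not the power for any of the 9 genes. Depths were estimated by searching for a pair of library sizes that put the low RPKM values of 1539 single-exon genes on whole reads within 0.3%. Between 93.2 and 98.3% of the values then lay on such steps, against 7.7 to 13.7% by chance. The shallower depth was chosen for the widest such gap, so these shares describe the fit and do not test it. Read numbers are estimates from these depths and the lengths of RefSeq transcripts.

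The genes and lists were chosen with earlier results of these data known, so the shares called in them are descriptions and no test. From each list, up to 4 genes per direction called in most comparisons were named, ties going to the larger log2 fold change at 200 µM on day 6. Up to 3 genes most like a measurable member were named by Pearson's r of log2(RPKM + 0.1). One of these genes is not reported here. A planned comparison of protein sequences was not run, and shared windows of 50 bases in GENCODE M21 transcripts were counted instead. RefSeq promoters were matched by symbol for 6 of the 9 genes, in 7 windows. Other thresholds, adjustments, pseudocounts of 0.1 and 1 and a median centring were tried. Python 3.11.15, numpy 2.4.6, pandas 2.3.3 and scipy 1.17.1 were used.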

Additional observations from a re-analysis of the deposited data

How the results depend on the processing

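No paired analysis was possible because the tables give 1 value per group and none per library. For the same reason, leaving out a library and another count tool were not run. With an adjusted p under 0.01, the number of the 9 genes called went from 1 to 0 at 100 µM on day 4, and from 2 to 1 at 150 and 200 µM on day 4 and at 200 µM on day 6. With an adjusted p under 0.1 it went from 0 to 1 at 150 µM on day 6, and with all tested genes adjusted together from 2 to 1 at 200 µM on day 4. The number of genes called over all lists went, with a minimum absolute log2 fold change of 0.5, from 6 to 2 at 100 µM and from 26 to 13 at 150 µM on day 4 and from 14 to 5 at 100 µM on day 6. With an adjusted p under 0.01 it went from 14 to 7 at 100 µM and from 41 to 25 at 200 µM on day 6. Each of these follows from the stricter or looser rule itself, on the same p-values. For the day difference, 1 of the 9 genes at each dose had an unadjusted p under 0.05, and 0 passed after adjustment. Of 162 fold changes of the 9 genes under another pseudocount or centring, 154 moved by less than their implied SE and 8 by more. None reversed in a gene that was called. The 8 included all 4 called Krt7 values. With a pseudocount of 1 these went from -2.48, -2.58 and -2.45 to -0.94, -0.96 and -0.94 on day 4. At 200 µM on day 6 Krt7 went from -1.66 to -0.81. The rest were Cdx2 at 150 µM on day 4 and Gata3 at 150 µM on day 6. Centring shifted the median of all genes by at most 0.019 on the log2 scale. Depth limits what can be said of Cdx2 and Gata3, at about 31 reads or fewer per group, and of Elf5, at an RPKM of 0.0947 or less.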
